A study of Mus musculus with 43 samples.

Results

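Promoter peaks of histone H4 arginine 3 asymmetric dimethylation (H4R3me2a) that were called in mouse testicular germ cells at postnatal day 14 (P14) and not at P7 were examined. A peak was a member when it stood in the first P14 list, overlapped by at least 1 bp a peak of both other P14 lists, overlapped no peak of any of the 3 P7 lists, and had its summit within 3000 bp of a GENCODE vM21 transcript start. Of the 39597 peaks of the first P14 list, 2130 were members, and they lay nearest to the starts of 2057 genes, of which 1793 were protein-coding. The members were selected on the H4R3me2a peak calls themselves, so their number, their heights and their absence from the P7 lists are a description with no test. Another 2767 reproducible P14 promoter peaks overlapped a peak of at least 1 P7 list and are called kept peaks, and 790 reproducible peaks were gained outside promoters. Both a member and a kept peak lay at 101 genes, so these genes had a promoter peak called at P7 as well.

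H4R3me2a is deposited mainly by Prmt1, a type I protein arginine methyltransferase, and is known as a mark of active or poised chromatin. H3K4me3 marks the starts of genes whose promoters are open to transcription, and H3K27ac marks active promoters and enhancers. At P7 the germ cells of the mouse testis are mostly spermatogonia, the mitotic cells that hold the stem cells of the lineage, and by P14 many have entered meiotic prophase as spermatocytes.

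The chromatin lists came from CUT&Tag, in which a transposase tethered by an antibody cuts next to the marked nucleosomes, of C57BL/6J WT testes after digestion of the tubules and passage through a strainer, at P7 (spermatogonia-enriched cells) and P14 (cells that 1 label calls spermatocytes and the title spermatogonia). There were 3 lists per age for H4R3me2a, 2 per age for H3K4me3, H3K27ac, H3R2me2a, H3R8me2a and H4R3me1, and 2 at P7 and 3 at P14 for the symmetric mark H4R3me2s, with 2 more P7 lists of H4R3me2s from Prmt1 dKO mice. The peak names in the P14 lists of H4R3me2s carry the number 17 where the labels give 14 days. RNA was measured at P7 only, in 3 WT and 3 Prmt1-dKO bulk libraries of whole testis and in 2 WT and 2 Prmt1-dKO Smart-seq2 libraries of sorted GFP-positive spermatogonia. Prmt1-dKO mice carry Prmt1 lox/lox alleles and the Ddx4-CreERT2 knock-in, whose Ddx4 promoter drives EGFP and CreERT2 in germ cells, and tamoxifen was injected on 3 days. The labels name the controls WT, while the methods describe the controls of the sort as heterozygous Prmt1 +/lox mice with the Cre allele. The study calls the sorted libraries biological duplicates and its experiments in general biologically replicated, while no label says which lists or libraries came from separate animals, so p-values measure the spread between these samples.

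The H4R3me2a lists held between 39597 and 44836 peaks at P14 and between 16995 and 18722 at P7, and the read numbers behind them are unknown. Bulk libraries held between 12396317 and 16598233 counts and Smart-seq2 libraries between 15610354 and 18547078. In sorted WT cells all 8 spermatogonial markers had a mean TPM of at least 1, and so did 6 of 6 spermatocyte markers. Their summed spermatocyte level was 733.5 to 784.8 TPM, against 212.1 to 281.4 in whole testis. The 15 Sertoli markers summed to 8008 to 8649 TPM in whole testis and to 369.9 to 388.3 TPM in sorted cells. Of the Leydig, peritubular, macrophage and endothelial markers, 3 of 10, 3 of 7, 1 of 10 and 1 of 7 reached a TPM of 1 in sorted WT cells, with Cyp17a1, Myh11, Adgre1 and Pecam1 below it.

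Most members lay on the CpG-rich starts of genes. Their width had a median of 339 bp (200 to 1395), the summit lay at a median of 140.5 bp from the nearest start, and 1467 of 2130 summits (68.9%) were downstream of it. The peaks that follow were chosen to show the range of members, from a tall peak on a housekeeping gene to a CpG-free peak with no H3K4me3. They are the parts of the peaks outside exons, read 5′ to 3′ on the strand of the gene from the RefSeq copy of GRCm38.p6, with CG dinucleotides in capitals. Ric8b, a chaperone of G-protein alpha subunits, had one of the 10 tallest protein-coding members, and the stretch at chr10:84917307-84917506 (plus strand) lies upstream of its start. Sycp2 (chr2:178407686-178407827, minus strand, upstream) and Sycp3 (chr10:88459713-88459912, plus strand, first intron) encode axial elements of the synaptonemal complex, which joins homologous chromosomes in meiosis. Trip13 (chr13:73937946-73938048, minus strand, upstream) encodes the ATPase that removes HORMA-domain proteins from synapsed axes. Rps19 (chr7:24884110-24884309, plus strand, upstream) had the highest TPM of all genes at members, and Lgr5 (chr10:115587781-115587980, minus strand, upstream), a receptor known from intestinal stem cells, lay under a TPM of 1. Meikin (chr11:54370270-54370469, plus strand, upstream) encodes a kinetochore protein of meiosis I, and Dnmt3c (chr2:153696809-153696876, plus strand, intron) the DNA methyltransferase that silences young transposons in male germ cells.
Ric8b: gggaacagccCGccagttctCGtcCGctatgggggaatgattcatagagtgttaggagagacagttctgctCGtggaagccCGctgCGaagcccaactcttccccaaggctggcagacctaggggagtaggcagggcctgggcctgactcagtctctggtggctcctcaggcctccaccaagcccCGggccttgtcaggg
Sycp2: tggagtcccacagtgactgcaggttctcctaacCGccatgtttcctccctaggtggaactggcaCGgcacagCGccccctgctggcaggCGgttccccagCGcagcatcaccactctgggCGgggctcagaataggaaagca
Sycp3: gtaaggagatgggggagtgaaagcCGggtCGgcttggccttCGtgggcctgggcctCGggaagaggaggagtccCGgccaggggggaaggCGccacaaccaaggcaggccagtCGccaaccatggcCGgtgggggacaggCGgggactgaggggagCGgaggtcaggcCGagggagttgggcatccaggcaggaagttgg
Trip13: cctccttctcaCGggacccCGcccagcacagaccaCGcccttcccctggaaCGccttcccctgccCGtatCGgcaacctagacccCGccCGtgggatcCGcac
Rps19: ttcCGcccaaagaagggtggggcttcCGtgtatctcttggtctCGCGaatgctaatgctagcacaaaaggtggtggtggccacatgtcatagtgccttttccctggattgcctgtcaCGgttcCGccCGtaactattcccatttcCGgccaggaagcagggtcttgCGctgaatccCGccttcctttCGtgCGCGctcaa
Lgr5: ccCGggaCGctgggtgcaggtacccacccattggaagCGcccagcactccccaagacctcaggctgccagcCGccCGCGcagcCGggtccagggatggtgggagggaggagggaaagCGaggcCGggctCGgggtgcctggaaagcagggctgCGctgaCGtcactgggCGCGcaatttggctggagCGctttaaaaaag
Meikin: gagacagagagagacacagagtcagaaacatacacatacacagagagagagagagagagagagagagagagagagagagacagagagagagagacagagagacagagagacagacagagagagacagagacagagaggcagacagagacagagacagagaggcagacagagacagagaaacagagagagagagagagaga
Dnmt3c: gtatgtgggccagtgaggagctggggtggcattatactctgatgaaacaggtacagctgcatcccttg

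The Meikin and Dnmt3c stretches held 0 CG dinucleotides, whereas Lgr5 held 15, Rps19 13, Sycp3 11, Trip13 9, Ric8b 7 and Sycp2 6. Meikin and Dnmt3c also lacked H3K4me3 at P7, and the members without that mark are described further on. Over 300 bp centred on the summit, the members had a median GC content of 64.3% and a median ratio of observed to expected CpG of 0.776. Kept peaks had 64.0% and 0.762, peaks gained outside promoters 53.0% and 0.171, and windows centred on 21938 protein-coding gene starts 58.0% and 0.589. With a GC content of at least 55% and a CpG ratio of at least 0.65 called CpG-dense, 1414 of 2130 members (66.4%) were CpG-dense, as were 61.6% of kept peaks, 3.54% of peaks gained outside promoters and 42.4% of gene starts. The letters GGGCGG, the GC box bound by SP and KLF factors, stood on either strand in 55.3% of member windows, 53.6% of kept windows and 45.5% of windows on gene starts. The letters TATAAA stood in 2.49%, 2.35% and 10.6%, and CCAAT in 21.4%, 22.5% and 36.6%. Member windows centre on the summit and not on the start, so motifs that sit at a fixed distance upstream of the start fall outside some of them. A match of letters is a description and not a bound site.

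**Figure D1:**
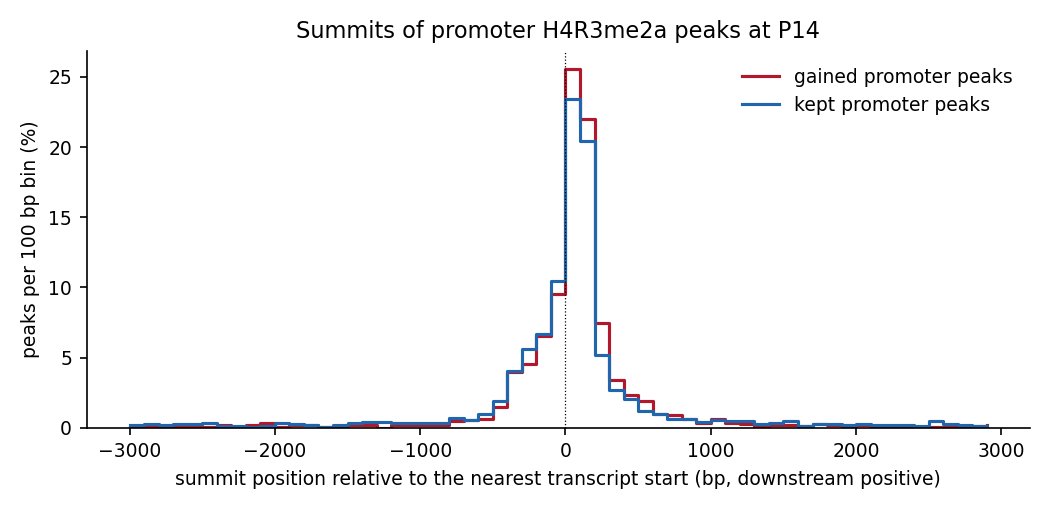
Distance of the peak summit from the nearest transcript start for members (gained) and kept promoter peaks, as the percent of peaks per bin of 100 bp, with negative values upstream. Both sets peak just downstream of the start, and 86.9% of members lie within 500 bp of it.

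Promoter identity rested on short distances for most members. Of 2130 summits, 1852 (86.9%) lay within 500 bp and 1998 (93.8%) within 1000 bp of a start. At the edge of the 3000 bp window the last members inside included those of Rpl31-ps17 and Gm11930, at 2946 and 2995 bp, and the first peaks outside were near 4930488N24Rik and Runx2, at 3011 and 3015 bp. The overlap with the other P14 lists was as small as 1 bp at Fhdc1 and 2 bp at Tbcd and Ltn1, and 124 members overlapped a replicate by under 50 bp. The nearest P7 H4R3me2a peak was at a median of 10918 bp, but 369 members (17.3%) had one within 1000 bp and 83 had one at under 100 bp. For these the word gained describes the peak interval, since a P7 peak stood beside it. Of the members, 270 (12.7%) had the starts of at least 2 protein-coding genes within 1000 bp of the summit, and each was assigned here to the nearest start only.

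Most members already lay on H3K4me3 at P7. The share of members overlapping a P7 H3K4me3 peak was 87.1% (1856 of 2130) in the first list and 86.6% (1844) in the second. The mean was 86.9% ± 0.398 (SD, n = 2 lists). Kept peaks had 87.0% ± 0.511 and peaks gained outside promoters 8.92% ± 1.52, so gained and kept promoter peaks were within 1 SD of each other, a description with no test. Their order turned with the choice of peaks, for example to 98.6 against 95.6% with P14 peaks at a q of at most 0.01. Without a P14 replicate the gained share was the lower one, for example 74.1 against 82.4% without replicate 3. By state, 1823 members (85.6%) had H3K4me3 in both P7 lists, 54 in 1 list and 253 (11.9%) in none. H3K4me3 stood in all 4 lists of P7 and P14 at 1813 members (85.1%). Seen from the other side, 9.38 and 9.68% of all P7 H3K4me3 peaks of the respective lists overlapped a member.

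P7 H3K27ac was less frequent at members than H3K4me3, and less frequent than at kept peaks. The share was 56.5% (1203 of 2130) in the first P7 list and 62.1% (1323) in the second, a mean of 59.3% ± 3.98 (SD, n = 2). Kept peaks had 70.8 and 73.7%, both above both values for members, and kept peaks called in all 3 P7 lists had 83.3 and 84.7%. No test was made between sets of peaks, which are not replicates. Both marks in both lists were found at 990 members (46.5%), H3K4me3 in both lists with H3K27ac in 1 at 472 (22.2%), and H3K4me3 in both lists with no H3K27ac at 361 (16.9%). Neither mark was in any P7 list at 206 members (9.67%). The second P7 list of H3K27ac was longer (23780 against 21974 peaks), and requiring a q of at most 0.01 for the H3K27ac peaks took the mean share to 31.9%.

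The P7 marks differed with the height of the P14 H4R3me2a peak. Members and kept peaks were split together into 3 bins of equal size by the mean −log10 p over the P14 lists, a split chosen after seeing the data. In the lowest, middle and highest bin the mean P7 H3K4me3 share of members was 75.4% (n = 951), 94.5% (n = 778) and 99.1% (n = 401), and that of kept peaks 71.8% (n = 680), 87.1% (n = 855) and 95.2% (n = 1232). For H3K27ac the members had 45.01, 66.45 and 79.3% and the kept peaks 49.4, 69.9 and 86.5%. Within each bin the mean H3K27ac share of members was the lower one and the mean H3K4me3 share the higher one, but in the middle bin the H3K27ac values of the single lists overlapped between members and kept peaks. Members were also lower in height than kept peaks, with a median of the mean −log10 p of 5.72 against 6.81.

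**Figure D2:**
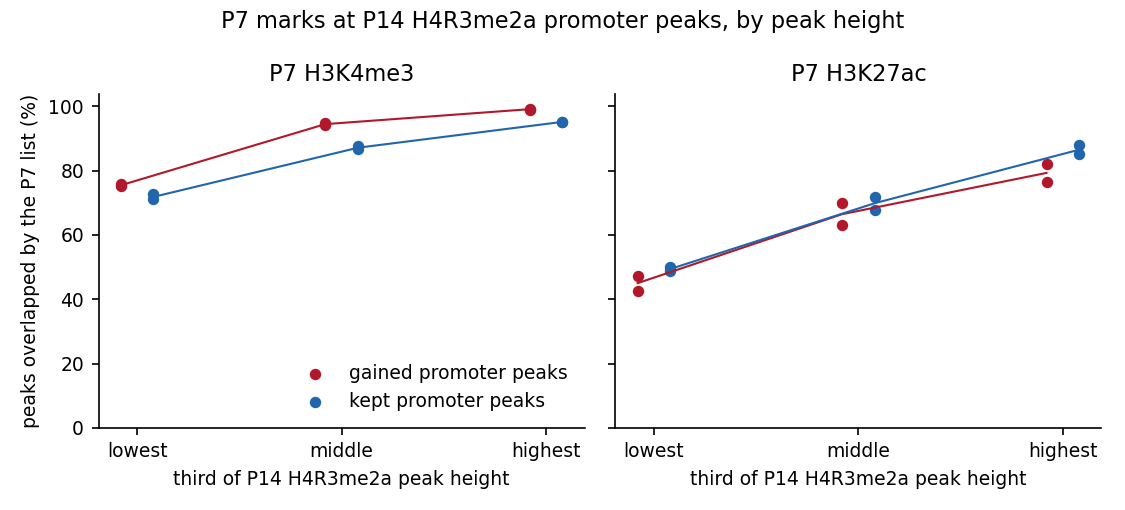
Percent of peaks that overlap a P7 H3K4me3 or H3K27ac peak (lines for the mean of 2 lists, points for each list) in 3 bins of P14 H4R3me2a peak height, for members (gained) and kept promoter peaks. Within a bin, members exceed kept peaks for H3K4me3 (99.1 against 95.2% in the highest) and their mean lies below for H3K27ac (79.3 against 86.5%), with overlapping lists in the middle bin.

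At P14, H3K27ac was found at more members. Members were chosen as H4R3me2a calls of P14 absent at P7, and this choice can tilt other marks on the same intervals toward P14. The share was 84.6% and 76.6% in the P14 lists (mean 80.6% ± 5.61, n = 2), which is 21.3 percentage points above P7, and both P14 values lay above both P7 values. For H3K4me3 the P14 lists had 89.1 and 89.95%, 2.65 points above P7. The exact two-sided permutation test over lists gave p = 0.3333 for each mark, the smallest value that 2 lists against 2 allow, so no test could pass 0.05. Both marks in both lists were found at 1555 members (73.0%) at P14 against 990 at P7, and 206 members had H3K27ac in no P7 list and in both P14 lists. The P14 lists of H3K27ac were longer, with 37984 and 45817 peaks against 21974 and 23780 at P7, and with all lists of the mark limited to the length of the shortest the difference was 17.7 points. With list lengths made equal in the same way the H3K4me3 difference was 0.423 points, and with H3K27ac peaks at a q of at most 0.01 the H3K27ac difference was 43.5 points. Kept peaks had 89.5 and 83.2% at P14.

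The other arginine marks were also found at more members at P14 than at P7. The choice of members on P14 calls can tilt these differences toward P14, and kept peaks were likewise chosen as reproducible P14 peaks. The part of the choice in these differences was not tested. H3R2me2a, the asymmetric mark of histone H3 arginine 2, overlapped 20.99 and 19.5% of members in the P7 lists and 84.6 and 86.9% in the P14 lists. H3R8me2a overlapped 18.9 and 20.99% at P7 and 65.8 and 70.7% at P14, and the monomethyl mark H4R3me1 25.4 and 16.7% at P7 and 60.3 and 61.4% at P14. For each of these every P14 value was above every P7 value. H4R3me2s, the symmetric mark made by Prmt5 on the same residue, overlapped 35.7 and 33.5% at P7 and 58.2, 40.8 and 46.2% at P14. Exact two-sided permutation tests gave p = 0.3333 for each of the first 3 marks and p = 0.2 for H4R3me2s, the smallest values these numbers of lists allow, and 0.3333 for each after Benjamini-Hochberg adjustment over 6 marks. The P14 lists of H3R2me2a (47975 and 55908 peaks), H3R8me2a (33932 and 29376) and H4R3me1 (29030 and 32003) were all longer than their P7 lists, whose lengths were 18821 and 20891, 15547 and 15361, and 22031 and 24193. With all lists of a mark limited to the length of the shortest, the differences between the ages were 50.7 points for H3R2me2a (65.5 with full lists), 35.1 (48.3) for H3R8me2a, 34.4 (39.8) in the case of H4R3me1, and 13.7 (13.8) in that of H4R3me2s. Only that of H4R3me2s moved by over 1.5 times, to 8.65 points with a q of at most 0.01 and to 8.92 points without P14 replicate 1. At kept peaks the P7 means of these 4 marks lay between 41.9 and 54.1%, above each P7 list of the members. Their P14 means were 94.0% (H3R2me2a), 83.9% (H3R8me2a), 80.8% (H4R3me1) and 68.6% (H4R3me2s), so the kept peaks also had higher shares at P14 and the rise with age was not particular to the members.

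Counted per member, more of the other arginine marks coincided at P14 than at P7, a count that the choice of members on P14 calls can also favour. At P7, 437 members (20.5%) overlapped no list of the other 4 arginine marks, and 2 had all 4 marks in at least 2 lists each. At P14, 25 members (1.17%) overlapped no such list, and 450 (21.1%) had all 4 marks in at least 2 lists each. Kept peaks had all 4 marks in 7.37% of cases at P7 and in 50.3% at P14. H4R3me2s had 3 lists at P14 against 2 at P7 and the P14 lists of the other 3 marks were longer, so this count is easier to reach at P14, and no count with lists of equal length was made.

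**Figure D3:**
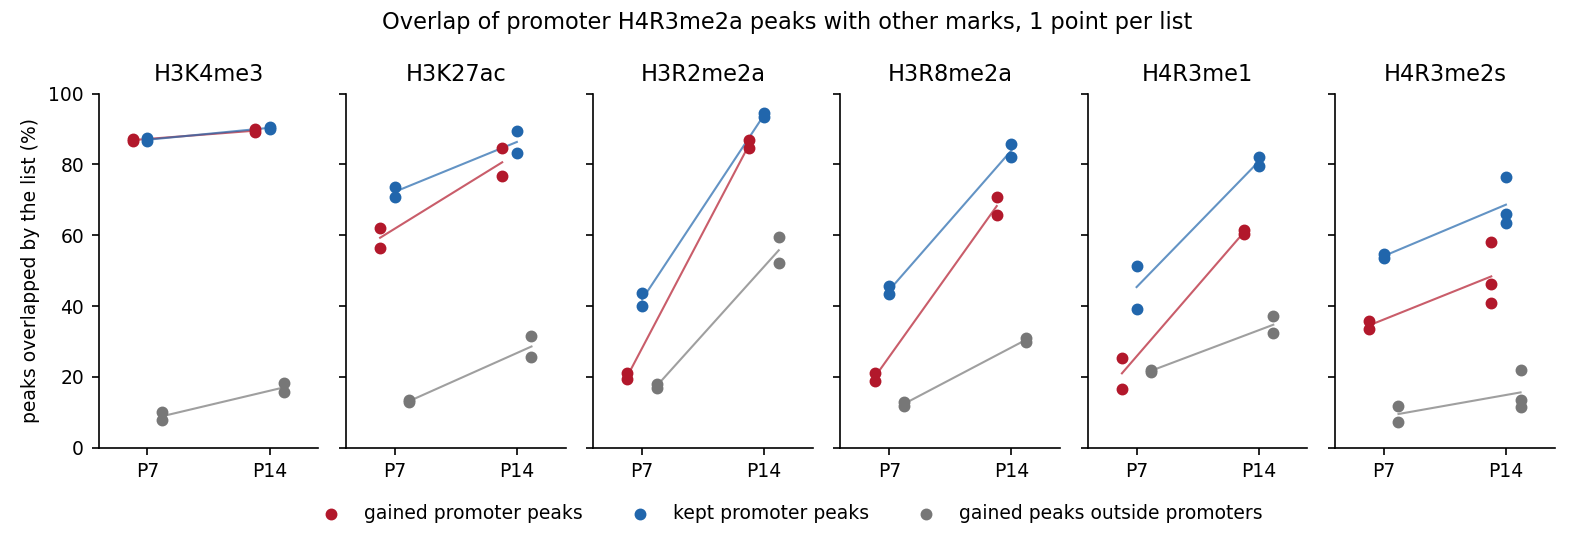
Percent of members (gained), kept promoter peaks and peaks gained outside promoters that overlap each of 6 marks at P7 and P14, with 1 point per peak list and lines through the means. H3K4me3 at members lies between 86.6 and 89.95% in all 4 lists, while H3R2me2a runs from about 20.3% at P7 to 85.7% at P14.

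Prmt1-dKO peak lists were given for H4R3me2s at P7 only. Members overlapped a peak in 24.1 and 15.7% of cases in the Prmt1-dKO lists and in 35.7 and 33.5% in the WT lists. The difference of means was -14.7 percentage points, and both Prmt1-dKO values lay below both WT values, with an exact two-sided p = 0.3333, the smallest possible. The Prmt1-dKO lists had 33941 and 28221 peaks and the WT lists 19981 and 36145, so the Prmt1-dKO lists were not the shorter ones on average. With all 4 limited to the length of the shortest the difference was -15.6 points, and with a q of at most 0.01 it was -5.35 points. Kept peaks had a mean of 36.8% in Prmt1-dKO and 54.1% in WT. H4R3me2a itself has no Prmt1-dKO list among the files used here.

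Genes at members were transcribed at P7 in most cases, before the peak was called. Over the 2052 genes found in the RNA tables, the median of the mean WT TPM (a level per transcript length and library size) was 21.9 in whole testis, with library medians between 20.8 and 23.1, and 19.5 in sorted spermatogonia, with library medians of 18.0 and 19.3. The choice of peaks moved the median in sorted cells further, to 11.8 without P14 replicate 3, 11.98 without P14 replicate 1 and 32.4 with P14 peaks at a q of at most 0.01. In whole testis 1728 genes (84.2%) had a TPM of at least 1, and 1650 (80.4%) in sorted cells. Genes at kept peaks had medians of 24.8 and 21.05, and all protein-coding genes 5.96 and 2.1. In both assays 1593 genes (77.6%) reached a TPM of 1, and 267 (13.0%) stayed below it in both. Whole testis holds somatic cells, and there fewer cells of a type and less RNA per cell cannot be told apart.

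A member was more frequent at expressed genes than at silent ones, without a further gain at the highest levels. Of protein-coding genes with a WT bulk TPM below 0.1, 0.825% had a member, of those between 0.1 and 1, 3.33%, and of those between 1 and 10, 7.39%. The share was 14.3% between 10 and 50 TPM, 13.9% between 50 and 200 and 11.8% at 200 and above. For kept peaks the shares were 17.5, 20.5 and 19.0% in the last 3 ranges. Over all 21897 protein-coding genes with a value, 8.19% had a member and 10.3% a kept peak.

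The level at P7 followed the P7 chromatin state of the member. Genes at members with both marks in both lists had a median WT TPM of 33.0 in whole testis and 35.4 in sorted cells. With H3K4me3 in both lists and H3K27ac in 1 the medians were 24.7 and 22.6, and with H3K4me3 in both lists and no H3K27ac they were 8.95 and 5.97. With neither mark they were 0.163 and 0. Genes at kept peaks of the same states had 33.5 and 35.4 with both marks, 11.96 and 5.19 with H3K4me3 alone, and 0.048 and 0 with neither. The 206 genes whose member had H3K27ac in no P7 list and both P14 lists had 14.3 and 11.6. Levels therefore differed between states by more than they differed between gained and kept peaks of 1 state, a comparison of medians over genes with no test.

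**Figure D4:**
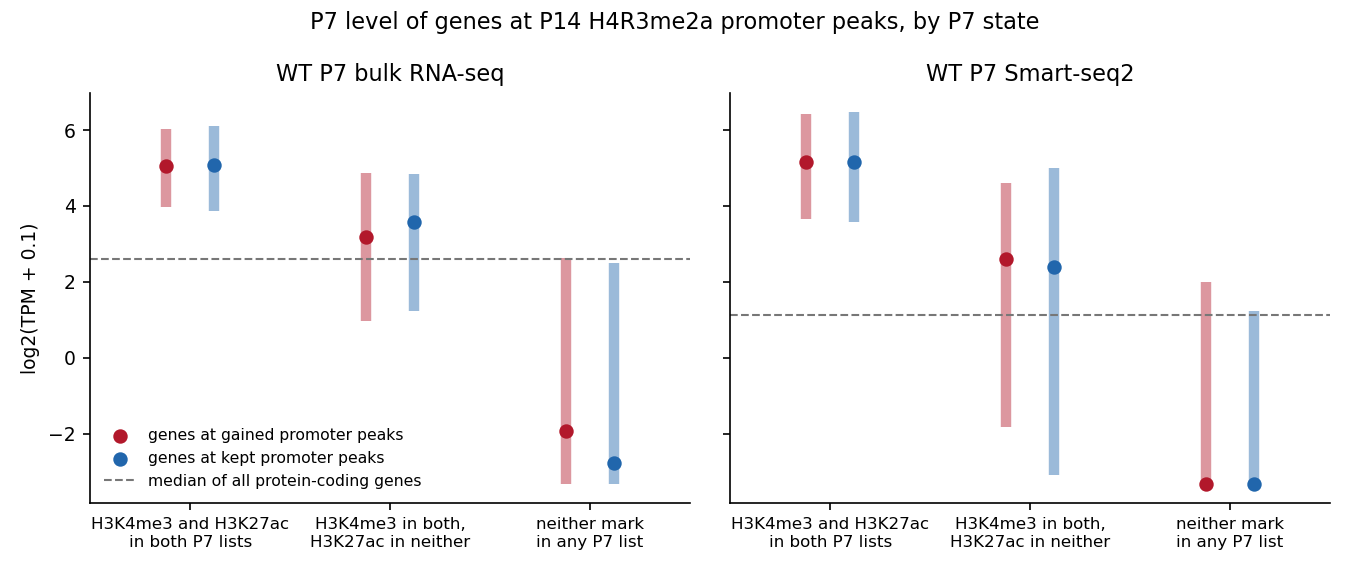
Mean WT level at P7 as log2 of TPM plus 0.1 for genes at gained and kept promoter peaks in 3 P7 states of H3K4me3 and H3K27ac, in whole testis (left) and sorted spermatogonia (right), with points at the median, bars over the interquartile range and a dashed line at the median of all protein-coding genes. For genes at members the median TPM goes from 33.0 and 35.4 with both marks to 0.163 and 0 with neither.

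The 253 members without P7 H3K4me3 stood apart in sequence and place. Of these, 11.1% were CpG-dense against 74.9% of the 1823 members with H3K4me3 in both lists, and their median CpG ratio was 0.244 against 0.811. Their summits lay at a median of 664 bp from the start against 123 bp, and 145 (57.3%) had a protein-coding nearest gene against 1677 (92.0%). Their peaks were also lower, with a median of the mean −log10 p of 4.51 against 5.93. At 190 of them no P14 list had H3K4me3 either, and at 28 both P14 lists had it.

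Those 28 members, at which H3K4me3 and H4R3me2a were both called at P14 only, lay at 22 protein-coding genes and were singled out after their values were seen. Their genes had a median WT TPM of 0.4 in whole testis and 0.598 in sorted cells, and 13 of 28 reached a TPM of 1 in each. Meikin had 2.71 and 11.0 TPM in the sorted WT libraries and 0, 0.17 and 0.08 TPM in the WT testes, so its level was higher in sorted germ cells than in whole testis. Hist1h2bm, a replication-dependent histone H2B gene, had 36.8 and 34.5 TPM in sorted cells and 1.60, 3.32 and 2.49 in whole testis. Mdc1, the scaffold of the DNA damage response on chromatin, had 77.1 and 39.0 TPM in sorted cells and 31.4, 28.2 and 29.3 in whole testis. Gpbp1 (131, 145 and 131 TPM in whole testis) and the GTPase gene Rheb (85.3, 77.4 and 78.6 TPM) were transcribed and had H3K27ac in both P7 lists at the member without H3K4me3. Hoxd13, a homeobox gene of limb and genital patterning, was at 0.05, 0 and 0 TPM in whole testis and listed at 0 in both sorted WT libraries.

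The 10 tallest protein-coding members were those of N6amt1, Zranb3, Fbxo5, Acer3, Tacc3, Ric8b, Ccdc12, Nudcd2, Coa7 and Cep97, and all 10 had H3K4me3 in both P7 lists, with H3K27ac in both P7 lists at all but Fbxo5, where it was in 1. N6amt1 (ENSMUSG00000044442.11, a methyltransferase of the release factor and histone H4 lysine 12) had a peak at chr16:87353963-87354473 with −log10 p of 13.3, 16.6 and 14.7. Zranb3, an annealing helicase at stalled forks, had 11.2, 18.3 and 11.2, and Fbxo5, the inhibitor of the anaphase-promoting complex also called Emi1, 7.72, 15.5 and 17.1. The height of the Cep97 peak ran from 8.85 to 18.7 over the replicates, so the order within these 10 is not firm. In WT testes N6amt1 had 21.4, 20.6 and 21.3 TPM, Fbxo5 29.9, 27.2 and 29.0, and Tacc3, a protein of the mitotic spindle, 92.9, 94.9 and 89.0. Zranb3 and Cep97, a suppressor of cilium formation, were lowest, at 8.66, 9.38 and 7.36 and at 9.22, 9.67 and 7.73 TPM. In the sorted WT libraries Nudcd2 had 52.7 and 0.31 TPM and Cep97 20.5 and 0, so the pair of libraries was far apart for these genes.

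Genes of meiotic prophase were represented by 7 of the 49 listed genes that had a match, Sycp1, Sycp2, Sycp3, 4930447C04Rik (Six6os1, a synaptonemal complex protein), Gm960 (Top6bl, a partner of Spo11), Mlh3 and Trip13. This share of 14.3% stands beside 8.19% of all protein-coding genes and 12.1% of those with a bulk TPM of at least 1, and 5 of the 49 (10.2%) had a kept peak. All 7 had H3K4me3 in both P7 lists, and 5 had H3K27ac in both. Sycp3 (ENSMUSG00000020059.9, peak at chr10:88459551-88460050, in the stretch shown above) had 54.4, 62.8 and 55.5 TPM in WT testes and 207 and 185 TPM in sorted WT cells. Sycp2 had 8.45, 9.77 and 8.32 TPM in WT testes and 59.4 and 46.9 in sorted cells. Trip13 had 39.2, 38.7 and 37.4 TPM and 56.3 and 64.3. All 3 were thus transcribed at P7 in the sorted cells at levels above the median of genes at members. The sorted cells also held RNA of all 6 spermatocyte markers, as given above, and the part of spermatocytes in these levels was not tested.

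Among genes of later germ cell stages, the piRNA list had 1 member of 23 (Tdrd5, a Tudor protein of the germ granule), the list of pachytene and spermatid genes 2 of 50 (the RNA-binding protein Ybx2 and the transcription factor Rfx2), and the list of axoneme and flagellum genes 3 of 57 (Dnah6, Cfap54 and Cfap61). The last 2 lists had median WT bulk TPM of 0.952 and 0.54, and their shares of 4 and 5.26% stand beside 3.33% of all protein-coding genes between 0.1 and 1 TPM. Ybx2 had 13.3, 18.7 and 12.8 TPM in WT testes, Rfx2 5.20, 5.67 and 5.17, and Dnah6 0.05, 0.05 and 0.02. Cfap61 and Cfap54 were listed at 0 in both sorted WT libraries and had 1.84, 1.19 and 1.20 TPM and 0.37, 0.05 and 0.24 TPM in WT testes. H3K4me3 was in both P7 lists at Tdrd5, Ybx2, Cfap54 and Cfap61 and in 1 at Rfx2 and Dnah6, and none of these 6 had H3K27ac in both P7 lists. All 6 had H3K27ac in both P14 lists. Of 27 matched genes of the spermatogonial list 0 were members, and 4 had a kept peak. The spermatogonial and piRNA lists had median WT bulk TPM of 18.7 and 30.6, and of all protein-coding genes between 10 and 50 TPM 14.3% had a member.

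Several lists of genes of dividing and growing cells held members, and their shares are given beside 12.1% of all protein-coding genes at a WT bulk TPM of at least 1, 13.9% between 50 and 200 and 11.8% at 200 and above, with no test. The mitotic cell cycle list had 7 members of 37 (18.9%) (Ccnb2, Aurkb, Bub1, Mad2l1, Cdc20, Ccne2 and Cdc25a), all with H3K4me3 in both P7 lists and 3 with H3K27ac in both. Mad2l1, of the spindle checkpoint, had 71.2, 67.3 and 66.2 TPM in WT testes, and Ccne2, cyclin E2, had 14.9, 17.5 and 17.9 TPM there and 178 and 190 in sorted WT cells. The splicing factor list had 8 of 41 (19.5%), all with both marks in both P7 lists, among them Hnrnpa1, Hnrnpk, Srsf11 and Sf3a1. The ribosomal protein list had 9 of 65 (13.8%), the proteasome list 5 of 32 (15.6%), both near the shares of genes at like levels, and the list of ubiquitin ligases and deubiquitinases 7 of 30 (23.3%), with Rnf8, whose product ubiquitinates histones at DNA breaks, Fbxo7, Herc2 and Cul3. Kept peaks took up 24.3, 26.8, 9.23, 25 and 20% of the cell cycle, splicing, ribosomal, proteasome and ubiquitin lists. A member or a kept peak lay at 16 splicing genes, of which 8 had a member and 11 a kept peak. The same count was 12 for the ubiquitin list, with 7 and 6, so some genes of both lists had both. At those genes the word gained describes the peak and not the promoter. The 5 genes at members with the highest bulk TPM included Rps19, Rpl8, Hsp90ab1 and Rpl17, and Rps19 had 2853, 2460 and 3170 TPM in WT testes and 2466 and 2893 in sorted WT cells. Ribosomal proteins have many processed pseudogenes, so their counts are uncertain.

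Among chromatin regulators, of 35 genes for histone lysine methylation and acetylation 7 were members (20%) and 6 had a kept peak (17.1%), beside 13.9 and 20.5% of all protein-coding genes between 50 and 200 TPM, the range that holds the median of this list and of the next. The members were Wdr5 and Dpy30 of the H3K4 methyltransferase complexes, the acetyltransferases Ep300 and Kat5, Ezh2 and Suz12 of Polycomb repressive complex 2, and the H3K36 methyltransferase Setd2. Dpy30 had 135, 117 and 124 TPM in WT testes, Setd2 79.5, 81.6 and 79.8, and Ep300 33.7, 37.5 and 24.7. The list for arginine methylation held 12 genes, of which 4 had a kept peak (33.3%) and 1 was a member, Fbxo11. Fbxo11 is an F-box subunit of a ubiquitin ligase that was once annotated as an arginine methyltransferase, so no gene of the Prmt family, Prmt1 included, was at a member.

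Genes of somatic patterning that were members were near silent in WT testes. Of 58 homeobox and patterning genes 4 were members (6.90%, beside 8.19% of all protein-coding genes), among them Hoxb13, Hoxd13 and Sox2, and H3K27ac was in none of the 4 lists of either age at any of them. Only Sox2, of the pluripotency network, had H3K4me3 in both P7 lists, and Hoxd13 had it at P14. In WT testes Sox2 had 0.06, 0.11 and 0.05 TPM and Hoxb13 0.38, 0.20 and 0.63. Among all protein-coding genes at members with a mean WT TPM below 1 in both assays, the tallest peaks were those of Lgr5, Btc, Gsap, Lrfn2 and Stpg2. Lgr5 (peak at chr10:115587735-115588004) had 0.87, 0.67 and 0.82 TPM in WT testes and 0.01 in each sorted WT library, with H3K4me3 in 1 P7 list and both P14 lists and no H3K27ac at either age. Btc, Gsap and Lrfn2 had H3K4me3 in both P7 lists and no P7 H3K27ac, while Stpg2 had both marks in both P7 lists at 0.17, 0.38 and 0.05 TPM. The lists for other testicular cells, too short to set against the 8.19% of all protein-coding genes, had as members 0 of 15 Sertoli, 1 of 10 Leydig (Fdx1), 0 of 7 peritubular, 1 of 10 macrophage (Cd14) and 0 of 7 endothelial genes.

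Members were scarce on the X chromosome. It held 11 members (0.516%) and 13 kept peaks (0.470%), while 4.30% of protein-coding genes are X-linked. The P14 H4R3me2a lists had 0.593 to 0.725% of all peaks on X and the P7 lists 0.593 to 0.659%. H3K4me3 lists had 3.55 to 3.70% there at P7 and 3.4% at P14. H3R2me2a, H3R8me2a and H4R3me1 lists had 0.447 to 0.962%, H4R3me2s lists 0.619 to 1.34% and H3K27ac lists 1.46 to 2.11%. The low share on X was thus shared by all lists of the arginine marks, P7 lists and kept peaks included.

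In whole testis, edgeR called few genes at members as 2-fold different between Prmt1-dKO and WT. Prmt1 itself had 652, 604 and 638 TPM in WT and 410, 433 and 402 TPM in Prmt1-dKO testes, a log2 fold change of -0.49 (SE 0.13, FDR = 0.0334 by edgeR's quasi-likelihood test with Benjamini-Hochberg adjustment). In sorted cells it had 350 and 239 TPM in WT and 179 and 151 in Prmt1-dKO, a log2 fold change of -0.88 (SE 0.26, FDR = 0.133 by the same edgeR test). The groups did not overlap in either assay, and the floxed part holds exons 4 and 5 only, so the count over the gene checks the labels in part. In whole testis 22 of 1773 tested genes at members were higher in Prmt1-dKO (1.24%) and 19 were lower (1.07%), at an FDR below 0.05 and 2-fold. Of all 16554 genes tested, 5.32% were higher and 1.78% lower. Without WT replicate 1 the higher genes numbered 13, against 4.01% of all genes tested. DESeq2 called 24 of 1873 higher and 24 lower, against 6.34 and 1.37% of all genes, and at an unadjusted p below 0.05 and 2-fold edgeR gave 30 and 23 of 1773, against 6.72 and 2.2%. Genes at kept peaks numbered 34 higher and 15 lower of 2246 by edgeR. The median log2 fold change was -0.036 over genes at members and 0.023 over all genes. In the Prmt1-dKO testes the summed level of 15 Sertoli markers was 5343 to 6033 TPM against 8008 to 8649 in WT, that of 10 Leydig markers 457.3 to 504.2 against 972.0 to 1088, of 7 peritubular markers 349.1 to 561.3 against 977.5 to 1041, of 10 macrophage markers 161.0 to 194.9 against 135.1 to 157.9 and of 7 endothelial markers 109.5 to 136.3 against 105.4 to 108.5. The part of these cell types in the calls of whole testis was not tested.

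The genes at members that were higher in Prmt1-dKO testes were mostly low in WT. Of the 22, 12 had a mean WT TPM below 1, beside 15.8% of all genes at members. At P7, 16 had no H3K27ac at the member (beside 28.5% of all members), and 13 had H3K4me3 in both lists (beside 85.6%). The same shares were not counted over all genes called higher, so these traits need not be particular to genes at members. AY074887 rose from 0, 0.19 and 0.18 to 4.40, 6.13 and 2.91 TPM, with a log2 fold change of 5.06 (SE 0.70, FDR = 0.0026 by edgeR). Gsap, whose product is a gamma-secretase activating protein, rose from 0.28, 0.26 and 0.33 to 1.93, 1.32 and 1.91 TPM (log2 fold change 2.34, FDR = 0.00208 by edgeR), with no overlap between the genotypes. Kcnj2, an inward rectifier potassium channel, rose from 0.18, 0.24 and 0.09 to 0.78, 0.59 and 0.78 TPM, Bmp3 from 0.02, 0.05 and 0.23 to 0.37, 1.19 and 0.34, and Gm10220 from 0.05, 0.05 and 0.03 to 0.35, 0.93 and 0.45. Bmp3 in bulk RNA-seq was not called without WT replicate 2 (FDR = 0.0537 by edgeR). Cd14, a receptor of macrophages and the list's only member, rose from 1.14, 1.59 and 1.08 to 3.55, 2.92 and 5.87 TPM (log2 fold change 1.81, FDR = 0.0059 by edgeR), and the 10 macrophage markers together were higher in every Prmt1-dKO testis than in every WT testis. Of the 9 ribosomal protein genes at members 1 was called, Rpl37, from a mean of 1365 to 2259 TPM.

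The genes at members that were lower in Prmt1-dKO testes had a median WT TPM of 23.6, and 16 of 19 had H3K4me3 in both P7 lists, beside 85.6% of all members. Cyp51, the lanosterol demethylase of cholesterol synthesis, fell from 38.6, 41.6 and 33.3 to 10.8, 11.98 and 9.40 TPM (log2 fold change -1.52, SE 0.15, FDR = 0.000845 by edgeR). Msmo1, the sterol C4-methyl oxidase of the same pathway, fell from 69.9, 66.5 and 64.2 to 27.8, 25.9 and 21.3 TPM (-1.27, SE 0.14, FDR = 0.00134 by edgeR). In sorted cells Cyp51 had 30.4 and 22.1 TPM in WT and 18.7 and 19.2 in Prmt1-dKO, a log2 fold change of -0.26 with FDR = 0.697 by edgeR. Pclaf, a PCNA-binding factor of replicating cells, fell from 26.5, 22.4 and 21.9 to 6.68, 7.51 and 7.92 TPM in whole testis, and E2f7, a repressor of the cell cycle, from 9.80, 9.86 and 9.53 to 4.12, 3.27 and 3.28. For each of Cyp51, Msmo1, Pclaf and E2f7 every Prmt1-dKO testis lay below every WT testis. The share of all genes whose testes separated by genotype, as for these genes and Gsap, was not counted. Dnmt3c, with no H3K4me3 at either age, fell from 2.75, 1.53 and 1.58 to 0.70, 0.61 and 0.09 TPM (-1.95, SE 0.56, FDR = 0.0413 by edgeR), and it was not called in 6 of 10 alternatives, with FDR between 0.0514 and 0.16 by edgeR. Cdc20 and the H3K4 methyltransferase subunit Dpy30 did not pass the test (FDR = 0.409 and 0.498 by edgeR), nor did Sycp2 (0.32, FDR = 0.11 by edgeR), whereas Sycp3 passed it at a log2 fold change of 0.56 (FDR = 0.00877 by edgeR), under 2-fold.

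**Figure D5:**
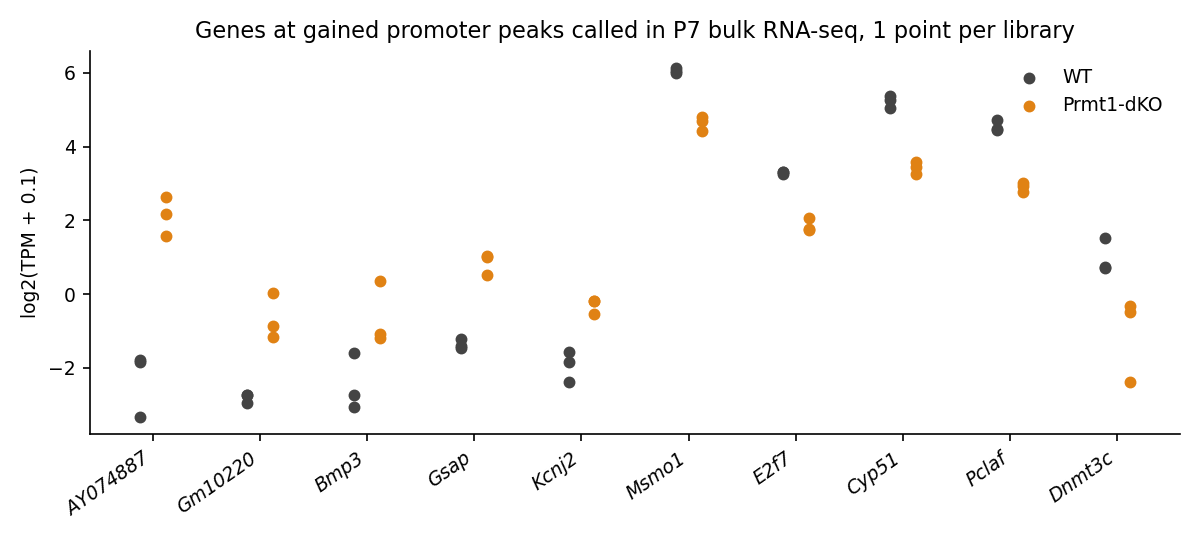
Level as log2 of TPM plus 0.1 in each of the 6 whole-testis libraries (3 WT, 3 Prmt1-dKO, 1 point each) for the 10 named genes at members called higher or lower in Prmt1-dKO. For Gsap the WT libraries lie at 0.26 to 0.33 TPM and the Prmt1-dKO libraries at 1.32 to 1.93, and for Cyp51 at 33.3 to 41.6 and 9.40 to 11.98 TPM.

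In sorted spermatogonia edgeR called 0 of 1747 tested genes at members higher and 0 lower, where 0.0% of all 16443 genes were called in either direction. At an unadjusted p below 0.05 and 2-fold, 122 were higher and 106 lower, against 13.8 and 4.12% of all genes. DESeq2 called 87 higher and 107 lower of 1769, against 7.33 and 3.93% of all genes. Without WT replicate 1 edgeR called 353 of 1789 higher (19.7%, against 29.5% of all genes) and 214 lower (11.96%, against 11.96%). Without WT replicate 2 it called 265 of 1792 higher (14.8%, against 22.5%) and 204 lower (11.4%, against 11.2%). Each of these fits leaves 1 WT library, assumed to vary as the Prmt1-dKO ones do. With every library in the fit, the biological coefficient of variation was 0.767 in sorted cells against 0.155 in whole testis. More genes had counts in the sorted Prmt1-dKO libraries (21404 and 20194) than in the WT ones (17106 and 15587). The median log2 fold change was -0.101 over genes at members and 0.154 over all genes tested. Sycp2 had 59.4 and 46.9 TPM in sorted WT and 14.8 and 20.6 TPM in sorted Prmt1-dKO cells, a log2 fold change of -0.999 (SE 0.21, FDR = 0.0774 by edgeR), and Ccne2 had 178 and 190 against 47.2 and 60.01 TPM (-1.21, SE 0.18, FDR = 0.0774 by edgeR). For both genes the genotypes did not overlap, and neither passed the threshold. The 8 spermatogonial markers summed to 1444 to 1459 TPM in sorted Prmt1-dKO cells against 1107 to 1236 in WT. The 6 spermatocyte markers summed to 447.0 to 485.8 TPM against 733.5 to 784.8, the 7 peritubular markers to 6.08 to 7.76 against 18.95 to 21.97, the 15 Sertoli markers to 529.6 to 709.9 against 369.9 to 388.3, and the 10 macrophage markers to 62.0 to 71.4 against 0 to 5.02. The part of cell types in these values was not tested.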

How the data were processed

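CUT&Tag of 6 histone marks besides H4R3me2a and RNA-seq were measured in mouse testicular cells (43 samples, of which 33 are peak lists and 10 RNA libraries). The authors called peaks per sample with MACS2 2.1.0 on mm10, and the deposited lists give a −log10 p, a −log10 q and a fold enrichment over background for each peak. Peak names carry a p of 0.005 (a q of 0.05 for H3K4me3). The authors ran STAR and RSEM, and the deposited RNA tables give an expected count, a TPM and an FPKM for each gene. FPKM was not used.

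Overlaps were counted from 1 bp. Starts came from GENCODE vM21, and each member took the gene of its nearest start. Gene identifiers were matched without their version, and 2052 of 2057 genes had a value. Sequences came from RefSeq GRCm38.p6, read with pysam 0.24.0. Expected counts were rounded, filtered with filterByExpr, scaled by TMM and tested per assay by edgeR 4.0.16 (R 4.3.3) quasi-likelihood with Benjamini-Hochberg adjustment, an FDR below 0.05 and at least 2-fold, over all genes. In 1 joint fit of the 10 libraries an interaction term compared the genotype effect between assays. DESeq2 1.42.0 was an alternative, and leaving out each list or library, other overlaps, thresholds, list lengths and scalings were the others. Shares of peaks were compared over lists by exact permutation tests (scipy 1.17.1). The fits were tested on simulated data.

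The members and gene lists were chosen with earlier results of these data known. Named genes were the 10 tallest protein-coding members, the 5 highest in WT bulk TPM, the 5 tallest below a TPM of 1 in both assays, up to 4 tallest per gene list, up to 5 called in each direction by fold change, and Prmt1. The 28 members with H3K4me3 new at P14 and Rpl37 were named after their values were seen. A few named genes are not reported here. Peaks on unplaced scaffolds were left out of those gained outside promoters.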

Additional observations from a re-analysis of the deposited data

Results flagged for a closer look

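For 19 of the 64 named genes at members with a joint fit, the genotype difference passed a test for a difference between sorted spermatogonia and whole testis. The test was the interaction term of the edgeR quasi-likelihood fit with Benjamini-Hochberg adjustment over 19608 genes, of which 3722 passed. That fit used 1 dispersion per gene for both assays, although the biological coefficient of variation was 0.767 in sorted cells and 0.155 in whole testis. Its FDRs can therefore be too small for the sorted cells, where the separate fit called no gene. The 3 meiotic and cyclin genes Sycp2 (FDR = 0.00682 by edgeR), Sycp3 (FDR = 0.0182) and Ccne2 (FDR = 0.0229) had a lower fold change of Prmt1-dKO over WT in sorted cells than in whole testis. Sycp3 had 207 and 185 TPM in sorted WT and 125 and 149 in sorted Prmt1-dKO cells, against 54.4, 62.8 and 55.5 TPM in WT and 83.7, 70.7 and 72.5 in Prmt1-dKO testes. The same direction was found for Acer3 (FDR = 0.00182 by edgeR) and for Fbxo7 (FDR = 0.0104), which had 115 and 102 TPM in sorted WT and 57.1 and 48.3 in sorted Prmt1-dKO cells.

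The opposite direction, a higher fold change in sorted cells than in whole testis, was found for the other 14 genes. Mad2l1 (FDR = 0.0014 by edgeR) had 52.1 and 39.9 TPM in sorted WT and 95.9 and 90.3 in sorted Prmt1-dKO cells, with 71.2, 67.3 and 66.2 against 48.4, 37.9 and 52.2 in whole testis. Hnrnpa1 (FDR = 0.0016 by edgeR) had 124 and 81.2 TPM against 253 and 261 in sorted cells. Some genes called lower in whole testis belong here. They were Pclaf (FDR = 0.00938 by edgeR), Cyp51 (FDR = 0.0153), Msmo1 (FDR = 0.0176) and E2f7 (FDR = 0.0393). These genes were named for their low fold change in whole testis, and the interaction term uses the same whole-testis counts. The choice itself thus favours a higher fold change in sorted cells, and its part was not tested. Pclaf had 9.17 and 2.45 TPM in sorted WT and 20.98 and 14.5 in sorted Prmt1-dKO cells. Hsp90ab1 (FDR = 0.0114 by edgeR) and Coa7 (FDR = 0.0288) complete the genes with levels above 1 TPM in every library.

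Genes near or at 0 in sorted WT cells passed as well, and their fitted differences depend on counts at the floor, so only levels are given. Cfap61 (FDR = 0.00133 by edgeR) was listed at 0 in both sorted WT libraries and at 1.71 and 7.80 TPM in the Prmt1-dKO ones, and Cfap54 (FDR = 0.0278) at 0 and at 1.5 and 1.97. Hoxb13 (FDR = 0.0053 by edgeR) was listed at 0 and at 0.78 and 0.72 TPM. Lgr5 (FDR = 0.0029 by edgeR) went from 0.01 in each to 1.57 and 1.67 TPM, while Gsap (FDR = 0.0204) and Lrfn2 (FDR = 0.0231) had at most 0.93 TPM in any sorted library. More genes had counts in the sorted Prmt1-dKO libraries (21404 and 20194) than in the WT ones (17106 and 15587), and the part of this in the differences was not tested.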

How the results depend on the processing

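Among the P14 minus P7 shares of the 6 marks, the H4R3me2s share of Prmt1-dKO minus WT and the fold changes of the 10 genes named for their bulk call, none changed its sign in the alternatives run. Bulk calls were 22 higher and 19 lower, but the lower ones were the more numerous without WT replicate 1 (13 and 19) or 2 (15 and 19), under the replicate block and without a fold threshold. Of all genes, 4.01% were higher and 1.14% lower without WT replicate 1, and 3.97 and 1.33% without WT replicate 2. Over all genes the higher calls were thus the more numerous in these 2 settings. The P7 H3K4me3 share of gained against kept peaks, 86.9 against 87.0%, turned to 91.4 against 89.2% with 50% overlap between the P14 lists, 98.6 against 95.6% with a q of at most 0.01 and 95.3 against 92.2% with equal lists. It was 75.9 against 83.4%, 75.8 against 82.3% and 74.1 against 82.4% without P14 replicate 1, 2 or 3. Of the members, 1366 remained with 50% overlap between the P14 lists, 404 with P14 peaks at a q of at most 0.01 and 969 with P14 lists limited to the shortest P7 length. Over these 3 choices the P7 H3K4me3 share was 91.4, 98.6 and 95.3%, the P7 H3K27ac share 63.9, 78.1 and 70.7%, the median TPM 23.5, 29.4 and 27.1 in bulk and 21.98, 32.4 and 27.5 in Smart-seq2. With a 1000 bp window the H3K4me3 share was 91.2% and the TPM 23.6 and 21.8, and with protein-coding starts 90.9%, 26.7 and 24.6. Requiring 50% overlap with the mark gave 84.4% for H3K4me3 and 48.1% for H3K27ac, and a q of at most 0.01 for the mark 31.9% for H3K27ac. Protein-coding members with no P7 peak within 3000 bp, chosen after seeing the data, had 91.0% H3K4me3. Genes at TPM of at least 1 had medians of 28.3 and 29.6, and every gene in the window 16.7 and 14.3. Which peaks a stricter choice removed differs by construction, and the cause of the other shifts was not tested.

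Leaving out 1 list or library gave 2576 to 4010 members (4010 without P14 replicate 1), H3K4me3 shares of 74.1 to 87.4% and H3K27ac shares of 46.6 to 62.1%, both lowest without P14 replicate 3, and median TPM of 16.4 to 22.6 in bulk and 11.8 to 20.035 in Smart-seq2. The P14 minus P7 differences ran from 2.21 to 3.10 points for H3K4me3, 17.3 to 25.3 for H3K27ac, 64.3 to 66.6 for H3R2me2a, 45.9 to 50.7 for H3R8me2a, 35.5 to 44.2 for H4R3me1 and 8.92 to 17.6 for H4R3me2s, and the H4R3me2s difference of Prmt1-dKO and WT from -18.8 to -10.5. Bulk calls numbered 13 to 31 higher and 19 to 25 lower, and Smart-seq2 calls 0 to 353 higher and 0 to 214 lower. Without a fold threshold 112 were higher (6.32%, against 10.6% of all genes) and 147 lower (8.29%, against 8.51%) in bulk, and DESeq2 called 87 (4.92%, against 7.33%) and 107 (6.05%, against 3.93%) in Smart-seq2. The replicate block gave 18 higher and 21 lower in bulk, against 4.17 and 1.56% of all genes. In Smart-seq2 it gave 0 and 0, where no gene was called. Same-numbered libraries had correlations of deviations of 0.0825, -0.221 and -0.119 in bulk and 0.0177 in Smart-seq2. Bulk libraries of unlike number had -0.226 to 0.261, so no pairing by number was seen. With so few libraries a shared origin of samples could not be tested. Depth of the peak lists is unknown, which limits any statement on absence of a peak.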
